A study of Rattus norvegicus with 18 samples.

Results

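The libraries labelled primordial germ cells, from which sperm and eggs later form, were compared with the libraries labelled epiblast, the pluripotent layer of the early embryo from which the germ line arises. All 18 libraries of the series entered: the 12 germ cell libraries and the 6 epiblast libraries were taken by their titles. The rats were of the strain Crlj:WI and of the genotype Prdm14-Venus, in both classes, so that every group carries the reporter. Epiblast was collected at embryonic day (E) 7.25 and E7.75, with 2 libraries labelled male and 1 labelled female on each day. Germ cells were collected daily from E9.5 to E12.5, with 2 libraries a day and no sex label, and at E15.5, with 2 male and 2 female libraries. The labels do not say how the cells were isolated. Replicates are numbered in the labels, which do not say whether they came from separate animals, so that the p-values rest on a spread between libraries that may be only technical. Age and class go together, because no epiblast library is as old as any germ cell library: the difference between the classes and the difference in age cannot be told apart.

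In rodents, germ cells are set aside from epiblast when BMP signals switch on Prdm1, Prdm14 and Tfap2c. The cells then move through the hindgut to the genital ridge. On the way they lose most of their DNA methylation, and after arrival they switch on gonadal germ cell genes such as Dazl and Ddx4. A difference from epiblast can therefore be present from the first stage on and be kept, or arise at a later stage, or belong to one stage. A comparison of means does not separate these cases, so each gene was also read library by library.

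Values were RPKM, reads scaled to gene length and library size, and were tested as log2(RPKM + 1), a scale that shrinks the change of genes at low levels. The level of a gene is given as RPKM (lowest, median and highest library). A log2 fold change is the mean over the 6 germ cell groups minus the mean over the 2 epiblast days, with its SE, and its adjusted p is from limma with Benjamini-Hochberg adjustment over 14865 genes. The gap is the distance between the nearest libraries of the classes on the same log2 scale, positive where the classes do not overlap. Taking the female E7.75 library as 100%, 14 libraries had a relative depth of 82.6% to 120.9%. The 4 from E10.5 and E11.5 reached 20.7% to 23.0%, and there 14.4% to 21.6% of tested genes were listed at 0. A 0 can be a failed estimate, so it is given as listed and no ratio of RPKM is drawn against it. The tests, log2 fold changes, gaps and counts do include values listed at 0, also where a whole class is listed at 0. Markers of several other cell types were highest at E9.5. The summed RPKM of 15 mesenchyme and matrix genes was 304.8 and 323 there, against 30.2 to 59.3 in the other germ cell libraries and 52.9 to 60.0 in epiblast. That of 11 endothelial genes was 49.3 and 225.2 at E9.5, and 3.29 to 17.8 in the other germ cell libraries. Not all marker sums peaked at E9.5. That of 17 hindgut and endoderm genes was 248.4 to 479.5 in germ cells, highest at E12.5, and 59.55 to 214.7 in epiblast. Of these 17, 6 were higher in germ cells, 4 lower and 7 did not pass. The sum of 4 neural ectoderm genes was highest at E11.5, at 162.1 and 183.1, against 19.45 to 63.53 in epiblast. In 1 E12.5 library 10 blood genes summed to 326.5, against at most 28.2 in any other library. In bulk libraries fewer cells of a type and less RNA per cell cannot be told apart.

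The labels were checked against markers. Tfap2c, a transcription factor required for germ cell specification, was listed at 0, 0.0117 and 0.639 RPKM in epiblast and at 196, 311 and 396 RPKM in germ cells. Prdm1, the repressor of the somatic programme, ranged from 0 to 0.242 RPKM in epiblast (median 0.0596) and from 13.6 to 38.8 RPKM in germ cells (median 23.4). Nanos3, an RNA-binding protein needed for germ cell survival, ranged from 0.0559 to 3.90 RPKM (median 0.767) and from 49.1 to 178 RPKM (median 87.1). All 12 germ cell libraries were above all 6 epiblast libraries for each of the 3 genes, and the exact two-sided permutation test over the libraries gave p = 0.0001077 for each, adjusted for the 3 tests p = 0.0001077, for mean differences of 8.02, 4.47 and 5.60 on the log2 scale. That is the smallest p-value this test can give for 12 and 6 libraries, and it follows from the lack of overlap. It adds nothing to the separation itself, and the test treats libraries of different ages as interchangeable. Among the epiblast markers, Pou5f1, the core pluripotency factor Oct4, was present in both classes, at 243 to 827 RPKM in epiblast and 115 to 388 RPKM in germ cells, with overlap and a lower mean (log2 fold change -1.27 ± 0.21, adjusted p = 1.22e-04, limma). Dnmt3b and Tdgf1, 2 other genes of this layer, were far higher in epiblast, at 914.9 to 1343 and 468.7 to 1199 RPKM, against 3.04 to 26.2 and 0 to 52.0 RPKM in germ cells. Fgf5, a defining marker of rodent epiblast after implantation, was listed at 0 in all 18 libraries.

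Of 14865 genes, 4772 (32.1%) were higher and 3922 (26.4%) lower in germ cells, so that 8694 passed the test and the rest did not. Fewer differed in every library: for 837 genes (5.63% of those tested) all 12 germ cell libraries lay above all 6 epiblast libraries, and for 903 (6.07%) all lay below. Some of these barely separated: RT1-CE2, an MHC class I gene, had a gap of 0.00302 on the log2 scale. A gap of at least 1 on the log2 scale was therefore asked for as well. It was met by 140 genes above (0.942%) and 157 below (1.06%), and a gap of at least 2 by 42 in each direction. Just inside the limit stood Tbc1d8, Sgk1 and Cd47 above and Lin28a and Rnf208 below, and just outside it Rab21, Spata5, Pgam1 and Psat1. The median log2 fold change was 3.42 for the genes 1 or more above, -3.07 for those 1 or more below and 0.09 for all genes tested.

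A large fold change did not imply separation. Of 1931 genes (13%) that passed with a log2 fold change of at least 1, 678 (35.1%) were higher in every library, and 1253 (8.43% of those tested) had at least 1 germ cell library inside or beyond the epiblast range. Of 1695 genes (11.4%) that passed at -1 or below, 705 (41.6%) were lower in every library and 990 (6.66% of those tested) overlapped. These overlapping genes are called mean-only here. In the gene lists below, higher or lower with overlap asks for a pass without separation, at any fold change. The mean-only shares of 8.43% and 6.66% are therefore not its base. All members higher or lower, with or without overlap, compare with the 32.1% and 26.4% of all genes. Separation from epiblast also did not mean an even level. In a test among the germ cell ages, which compares no epiblast mean but shares the error estimate of all 18 libraries, 8260 genes (55.6%) varied, as did 103 of the 140 genes above (73.6%) and 93 of the 157 below (59.2%). The test among ages holds male and female E15.5 cells as separate groups, so a difference between them can also give a pass.

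**Figure D1:**
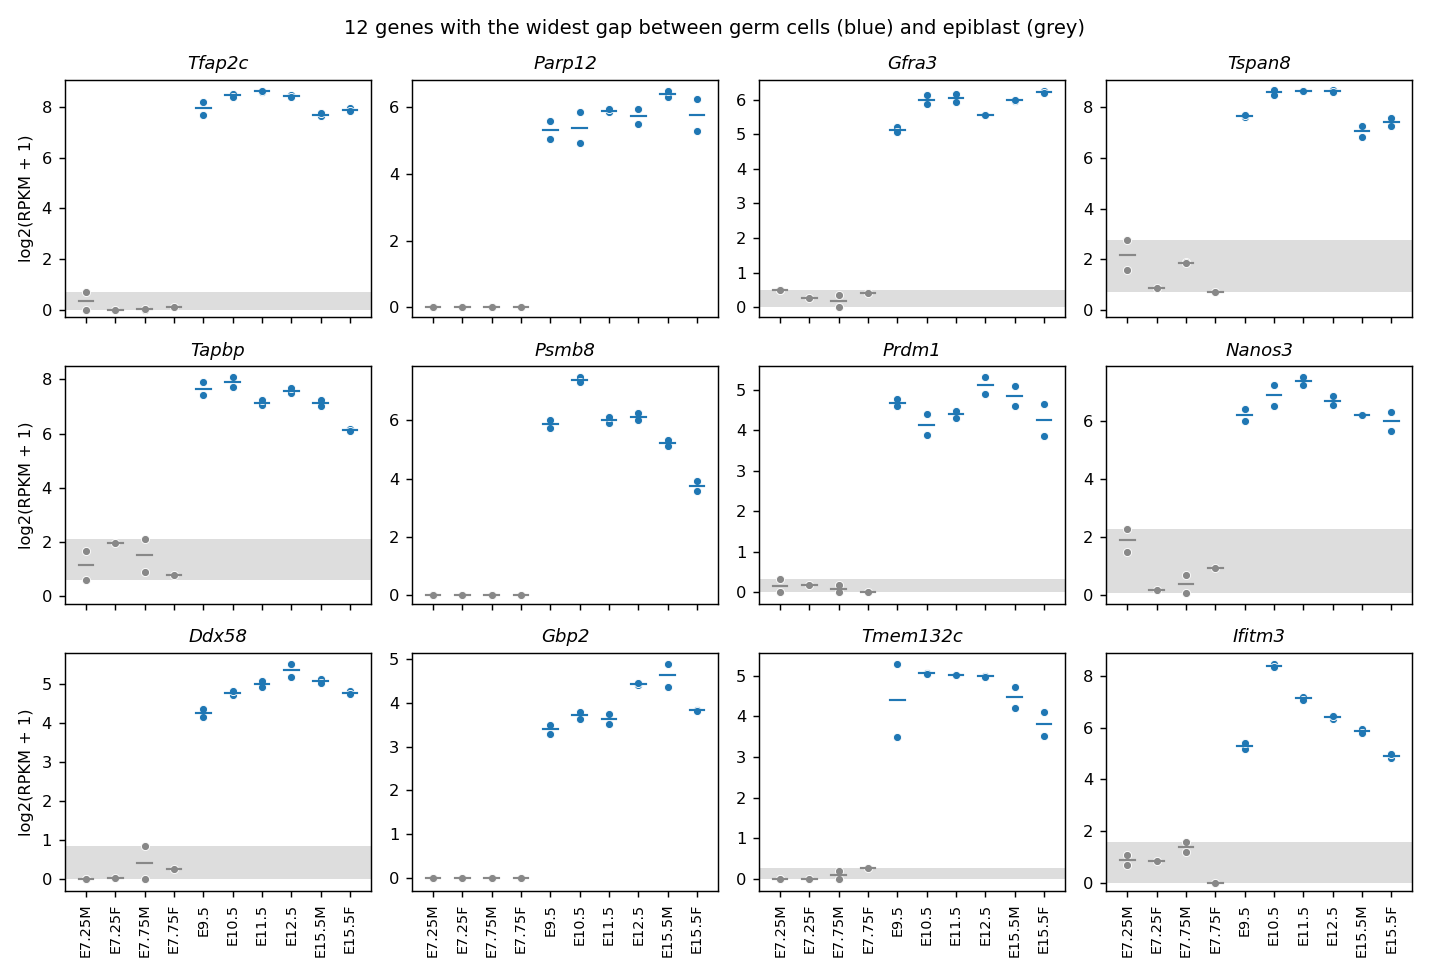
RPKM of the 12 named genes with the widest gap above epiblast, on log2(RPKM + 1), by age group; each point is 1 library, bars are group means, and the grey band spans the 6 epiblast libraries. No germ cell point enters the band in any panel; Psmb8 and Ifitm3 peak at E10.5, while Tfap2c stays between 196 and 396 RPKM.

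Tfap2c had the widest gap of the named genes, 6.91, with a log2 fold change of 8.02 ± 0.11 (adjusted p = 2.96e-15, limma). Prdm1 had a gap of 3.55 and Nanos3 one of 3.36. Neither Prdm1 nor Nanos3 passed the test among ages (adjusted p = 0.0888 and 0.175), while Tfap2c did (adjusted p = 0.00973), from 196 RPKM in a male E15.5 library to 396 RPKM at E11.5.

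Germ cell identity genes split into those apart in every library and those apart in the mean. Of 17 tested members of the list, 7 (41.2%, against 5.63% of all genes) were higher in every library, 6 were higher with overlap, 2 were lower in every library and 2 were lower with overlap (median log2 fold change 2.72). Kit, the receptor for the survival and guidance signal of migrating germ cells, ranged from 0.677 to 10.5 RPKM (median 5.44) in epiblast and from 45.4 to 108 RPKM (median 76.6) in germ cells. Its gap was 2.02 and its log2 fold change 3.69 ± 0.25 (adjusted p = 2.27e-08, limma). Dnd1, an RNA-binding partner of the Nanos proteins, ranged from 4.63 to 9.45 RPKM in epiblast and from 29.6 to 152 RPKM in germ cells, with the lowest value in 1 of the E9.5 libraries. Cxcr4, the chemokine receptor used in migration, was apart with a smaller gap of 0.70, from at most 4.63 RPKM in epiblast to at least 8.17 RPKM in germ cells.

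Prdm14, the gene the reporter is named for, was not apart in every library. It was listed at 0 to 1.11 RPKM in epiblast and at 0.299 to 17.4 RPKM in germ cells (medians 0 and 9.50), for a log2 fold change of 2.94 ± 0.39 (adjusted p = 1.63e-05, limma). The overlap came from 1 library on each side: 0.299 RPKM in an E10.5 library, one of the shallow ones, and 1.11 RPKM in a male E7.25 library. The other 5 epiblast libraries were listed at 0 and the other 11 germ cell libraries were at 3.64 RPKM or more. Dppa4 and Lin28a, which are widely used as germ cell and pluripotency genes, went the other way in every library. Dppa4 ranged from 38.5 to 71.1 RPKM (median 53.5) in epiblast and from 3.18 to 12.2 RPKM (median 8.05) in germ cells, and its log2 fold change was -2.58 ± 0.18 (adjusted p = 2.71e-08). Lin28a, an RNA-binding protein that blocks let-7 maturation, ranged from 356 to 434 RPKM in epiblast and from 26.8 to 177 RPKM in germ cells, with its highest germ cell libraries at E9.5.

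Dppa3, a germ cell gene also called Stella, had a 0 in each of the 6 epiblast libraries and was uneven in germ cells. It has near-identical copies, so its values are uncertain. It was at 0.106 and 31.3 RPKM at E9.5, 85.7 and 81.7 RPKM at E12.5 and 49.5 and 73.8 RPKM in female E15.5 cells, and below 1 RPKM in the 6 libraries from E10.5, E11.5 and male E15.5. Utf1, a chromatin factor of pluripotent cells, was lower in the mean (log2 fold change -0.61 ± 0.067, adjusted p = 2.93e-06) but crossed the epiblast range, from 283 and 274 RPKM at E9.5 to 1982 and 1861 RPKM at E10.5, against 1080 to 1626 RPKM in epiblast. Alpl, the alkaline phosphatase long used to stain germ cells, overlapped through the E9.5 libraries, at 25 and 31.6 RPKM against at most 32.5 RPKM in epiblast, and was at 128 RPKM or more in the other 10.

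Among the gene lists used, antigen processing and interferon response had the largest share of members higher in every germ cell library. This list holds the immunoproteasome, peptide loading, MHC class I, interferon-induced antiviral genes and the STAT and IRF factors that drive them. Of 41 tested members, 21 (51.2%) were higher in every germ cell library, 18 of them with a gap of at least 1, 16 were higher with overlap, 1 was lower with overlap and 3 did not pass. Among all genes tested 5.63% were higher in every library. The median log2 fold change of the list was 2.29 and that of all genes 0.09. The count of 21 ranged from 21 to 24 over the alternatives run, 21 without the E9.5 libraries and 23 without the E10.5 and E11.5 ones. The list was chosen with results of these data known.

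**Figure D2:**
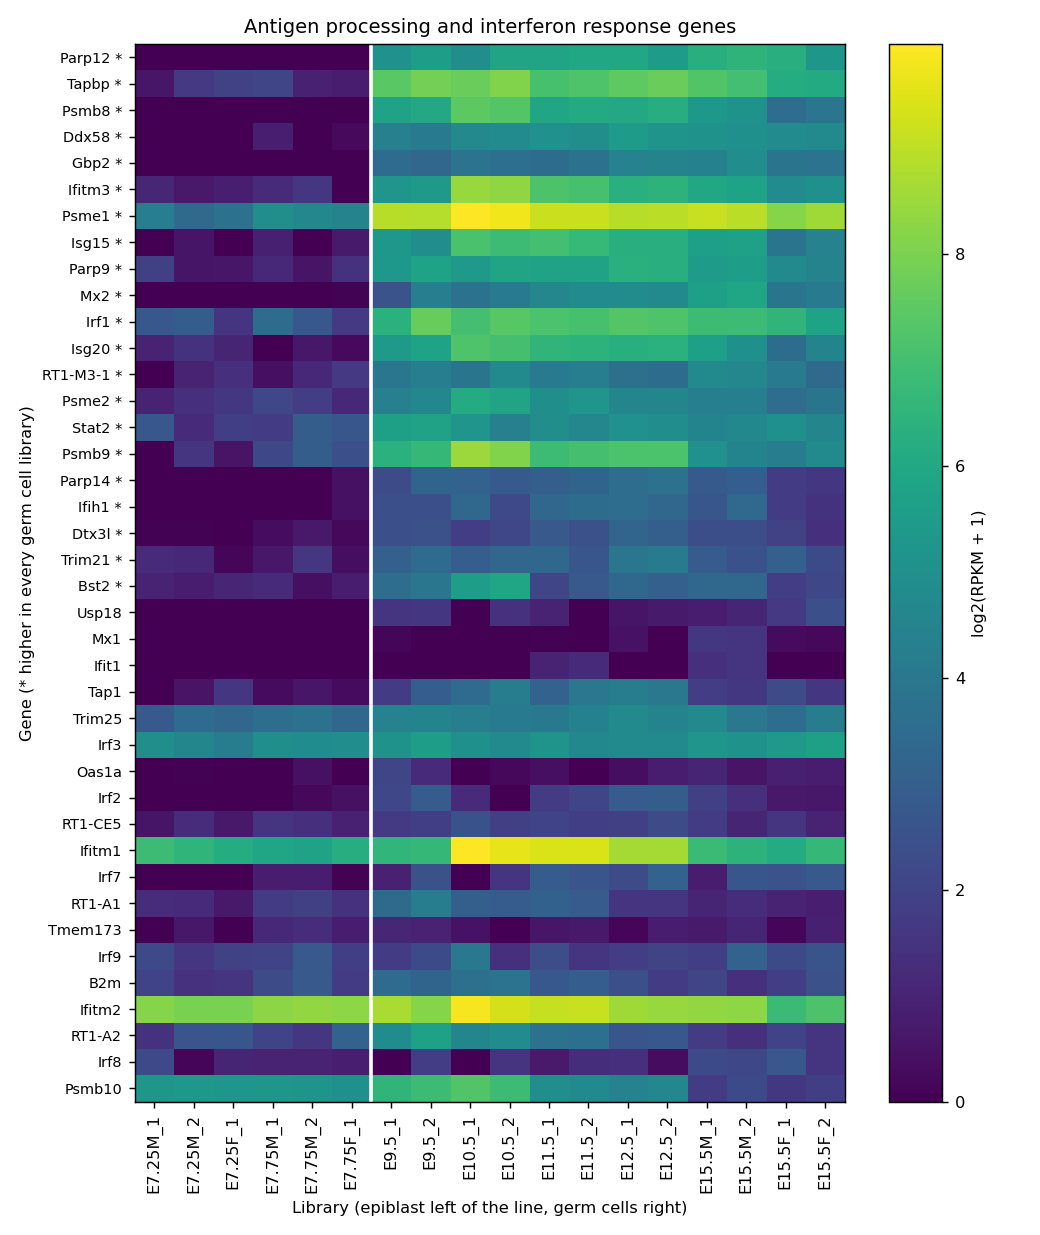
Levels of 40 antigen processing and interferon response genes (rows, ordered by gap) in the 18 libraries (columns), as log2(RPKM + 1); the line parts epiblast from germ cells and a star marks the 21 genes higher in every germ cell library. Among the starred genes the highest epiblast value was 29.7 RPKM, in Psme1; Psmb10, at the foot, is bright in epiblast, E9.5 and E10.5 and dark at E15.5.

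Members that act in antigen processing are described first. Tapbp, which tethers MHC class I to the peptide transporter, ranged from 0.520 to 3.30 RPKM (median 1.53) in epiblast and from 67.9 to 274 RPKM (median 162) in germ cells. Its gap was 4.0 and its log2 fold change 5.92 ± 0.21 (adjusted p = 3.34e-11, limma). Psmb8, a catalytic subunit of the immunoproteasome, had a 0 in each of the 6 epiblast libraries and was at 11 to 176 RPKM in germ cells (median 61.3). It was highest in the E10.5 libraries, at 176 and 158 RPKM, and lowest in the female E15.5 libraries, at 11 and 14.1 RPKM. Psmb9, a second immunoproteasome subunit, ranged from 0 to 6.68 RPKM in epiblast and 17.4 to 356 RPKM in germ cells. Psme1 and Psme2, which form the proteasome activator PA28, had gaps of 3.23 and 1.44. Psme1 reached the highest RPKM of the 21 separated members, at 9.99 to 29.7 RPKM in epiblast and 286 to 1008 RPKM in germ cells.

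Not all of the machinery followed. Psmb10, the remaining immunoproteasome subunit, was the 1 member that was lower in the mean, with a log2 fold change of -0.74 ± 0.11 (adjusted p = 3.35e-05). It was at 31.3 to 38.4 RPKM in epiblast, at 155 RPKM in the highest E10.5 library and at 2.07 and 2.63 RPKM in the female E15.5 libraries. All 4 libraries of E9.5 and E10.5 were above all epiblast libraries and all 8 later ones below. B2m, the light chain that MHC class I needs, overlapped, at 1.68 to 5.97 RPKM in epiblast and 1.51 to 13.1 RPKM in germ cells (log2 fold change 0.69 ± 0.21, adjusted p = 0.0101). Tap1, a subunit of the peptide transporter, missed separation through a single female E15.5 library, at 1.97 RPKM against 2.0 RPKM in the highest epiblast library. MHC genes have near-identical copies and their values are uncertain: RT1-M3-1 was apart with a gap of 1.81, while RT1-A1 and RT1-A2 overlapped.

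Among the interferon-induced genes, Parp12, an antiviral ADP-ribosyltransferase, was at 0 in every epiblast library and at 29.1 to 88.9 RPKM (median 56.2) in germ cells. Ddx58, the RNA sensor RIG-I, was listed at 0 to 0.790 RPKM in epiblast and at 16.8 to 44.5 RPKM in germ cells, a log2 fold change of 4.68 ± 0.14 (adjusted p = 4.78e-12, limma). Gbp2, an interferon-induced GTPase, stood at 0 in every epiblast library and reached 8.80 to 28.8 RPKM in germ cells. Ifitm3, an antiviral membrane protein also known as the early germ cell gene fragilis, ranged from 0 to 2.01 RPKM in epiblast and from 27.2 to 348 RPKM in germ cells. Isg15, a ubiquitin-like protein, reached at most 0.835 RPKM in epiblast and at least 13.5 RPKM in germ cells. It too was lowest in a female E15.5 library and highest at E10.5.

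The factors upstream were uneven. Irf1, the interferon response factor that drives many of these genes, ranged from 1.87 to 10.6 RPKM (median 5.79) in epiblast and from 54.1 to 204 RPKM (median 132) in germ cells, with a gap of 2.25 and no pass in the test among ages (adjusted p = 0.489). Stat2 was apart as well, from at most 6.77 RPKM to at least 19.6 RPKM. Irf9, a partner of Stat2, did not pass (log2 fold change 0.17 ± 0.34, adjusted p = 0.69). Classical antiviral effectors were low: Mx1, Ifit1 and Oas1a reached at most 2.05, 1.89 and 3.26 RPKM in any germ cell library, whereas Mx2 was at 4.93 to 58.0 RPKM. Over the 21 separated members the lowest germ cell library was a female E15.5 one for 16 (76.2%), and the highest an E10.5 one for 9 (42.9%).

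Promoters of 8 separated members are printed to show where 1 short motif, which most but not all of the separated members with a matched promoter hold, lies in them. Sequences are RefSeq promoters of the build GRCr8, 300 bases each, from 250 before to 50 after the start site, matched by symbol or synonym. The motif searched was GAAA, any 2 bases and a second GAAA, the core of the elements bound by interferon regulatory factors, on both strands with overlapping matches allowed. It was found in 12 of the 18 matched promoters (66.7%) of the list's members that were higher in every library, in 6 of 15 (40%) of the tested members that were not, and in 1034 of 27457 promoters in all (3.77%). These shares are a description. Among the genes with a gap of at least 1, it was found in 14 of 99 matched above (14.1%) and in 3 of 106 matched below (2.83%). Of the 14, Gbp2, Ifih1, Ifitm3, Isg20, Parp12, Parp14, Psmb8, Psme2 and Tapbp were already counted among the 12, so these counts are not independent. The stretches of 80 bases that follow end before the start site and run in the direction of transcription, with each match in capitals.
Tapbp, GRCr8 chr20:4967878-4967957, minus strand: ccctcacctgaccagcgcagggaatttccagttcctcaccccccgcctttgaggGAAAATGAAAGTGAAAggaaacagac
Psme2, GRCr8 chr15:33052760-33052839, minus strand: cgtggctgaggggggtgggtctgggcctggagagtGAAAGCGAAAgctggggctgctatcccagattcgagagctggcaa
Trim21, GRCr8 chr1:166399372-166399451, minus strand: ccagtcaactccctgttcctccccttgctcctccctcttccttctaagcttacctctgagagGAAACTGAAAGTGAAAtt
Isg20, GRCr8 chr1:142239932-142240011, plus strand: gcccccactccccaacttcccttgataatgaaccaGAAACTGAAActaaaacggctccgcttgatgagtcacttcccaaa
Ifitm3, GRCr8 chr1:205541759-205541838, minus strand: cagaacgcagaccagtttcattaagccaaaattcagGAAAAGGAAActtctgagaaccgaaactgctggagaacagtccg
Parp14, GRCr8 chr11:78408023-78408102, plus strand: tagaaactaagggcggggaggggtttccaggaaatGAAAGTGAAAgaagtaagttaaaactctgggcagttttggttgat
Parp12, GRCr8 chr4:68850542-68850621, minus strand: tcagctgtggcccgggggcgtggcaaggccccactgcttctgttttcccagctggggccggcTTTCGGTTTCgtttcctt
Gbp2, GRCr8 chr2:234005647-234005726, plus strand: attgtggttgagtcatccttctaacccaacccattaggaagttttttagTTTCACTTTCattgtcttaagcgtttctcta
Tapbp and Trim21 hold a pair of overlapping matches, and in Parp12 and Gbp2 the match lies on the other strand, where it reads TTTC, any 2 bases and TTTC. A second motif, TTCNNNGAA, the core of the elements bound by STAT dimers, was found in 6 of the 18 promoters (33.3%), in 3 of the 15 (20%) and in 8.68% of all promoters. For TFAP2 factors, the palindrome GCCNNNGGC was found in 23 of 99 promoters above (23.2%), in 30 of 106 below (28.3%) and in 15.7% of all, so its share was not higher above than below. A match is a run of letters and not a binding site.

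Pluripotency genes were mostly higher in germ cells (14 of 17 tested members, against 32.1% of all genes), and mostly not in every library. Of 17 tested members, 3 (17.6%, against 5.63% of all genes) were higher in every library, 11 higher with overlap, 2 lower with overlap and 1 did not pass. Nr5a2, a nuclear receptor that binds the Oct4 promoter, was listed at 0 to 0.00649 RPKM in epiblast and at 4.30 to 17.9 RPKM in germ cells, with a gap of 2.40. Klf5, a factor of the naive network, ranged from 0.117 to 0.575 RPKM and from 5.54 to 21.7 RPKM, a log2 fold change of 3.22 ± 0.16 (adjusted p = 6.85e-10). Gbx2 was the third, at most 2.27 RPKM in epiblast and at least 6.79 RPKM in germ cells. Nanog overlapped with a large fold change (2.71 ± 0.33, adjusted p = 6.86e-06) at 0.793 to 39.6 RPKM in epiblast and 17.4 to 133 RPKM in germ cells. The overlap rested on 1 male E7.75 library, at 39.6 RPKM, since the other 5 epiblast libraries were at 14.7 RPKM or less. Sox2, higher by 1.51 ± 0.14 (adjusted p = 5.23e-07), overlapped through an E9.5 library at 34.4 RPKM and a female E15.5 library at 51.3 RPKM, against a highest epiblast library of 56.0 RPKM. The count of 3 was 5 without the E7.25 and also without the E7.75 libraries.

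Genes of the formative and primed state were mostly lower, in 9 of 14 tested members, against 26.4% of all genes. Of 14 tested members, 5 (35.7%, against 6.07% of all genes) were lower in every library, 4 with a gap of at least 1, 4 lower with overlap, 3 higher with overlap and 2 did not pass. Tdgf1, the Nodal co-receptor Cripto, ranged from 469 to 1199 RPKM (median 676) in epiblast and from 0 to 52.0 RPKM (median 9.74) in germ cells, a log2 fold change of -6.57 ± 0.36 (adjusted p = 2.52e-09, limma). Sall2, a zinc finger factor of this state, reached at least 45.0 RPKM in epiblast and at most 7.71 RPKM in germ cells. Zic5, a factor of the primed network, was lower with a gap of 2.01. Fgf8 did not pass (adjusted p = 0.154), with 101 and 113 RPKM at E9.5 and at most 7.52 RPKM in the 10 later libraries.

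Genes of de novo DNA methylation held 3 of the 12 widest gaps below. Dnmt3b, the main de novo methyltransferase of the epiblast, was at 915 to 1343 RPKM (median 1093) in epiblast and at 3.04 to 26.2 RPKM (median 10.3) in germ cells. Its gap of 5.08 was the widest below among the named genes, with a log2 fold change of -6.63 ± 0.20 (adjusted p = 7.14e-12, limma). Dnmt3a was at 154 to 208 RPKM and at 0.464 to 17.9 RPKM, with a gap of 3.03. Dnmt3l, the cofactor without catalytic activity, was at 17.6 to 24.4 RPKM in epiblast and was listed at 0 to 0.797 RPKM in germ cells. None of its germ cell libraries, male E15.5 included, reached 1 RPKM.

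The rest of the methylation list was less separated. Of 22 tested members, 7 (31.8%, against 6.07% of all genes) were lower in every library and 1 higher (4.55%, against 5.63%). Uhrf1, which brings the maintenance methyltransferase to replicated DNA, was at 48.1 to 73.5 RPKM and at 8.34 to 35.5 RPKM, with a gap of 0.43. Dnmt1 itself overlapped, at 32.6 to 51.9 RPKM and 12.9 to 58.0 RPKM (log2 fold change -0.58 ± 0.20, adjusted p = 0.0193). Tdg, a glycosylase of base excision, was lower in every library (gap 0.64), and so was Trim28, the corepressor that guards imprints (gap 0.61), at 279.6 to 369.5 RPKM in germ cells. Tet2 was higher in the mean (log2 fold change 1.09 ± 0.19) and Tet1 lower (-0.71 ± 0.16), both with overlap and adjusted p of 2.44e-04 and 0.00169. Mbd2, a reader of methylated DNA, was the 1 member higher in every library, with a gap of 0.10 that was lost under quantile normalization (-0.00865).

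BMP signalling, which specifies germ cells, had 6 of 20 tested members (30%, against 5.63% of all genes) higher in every library, 9 higher with overlap, 1 lower with overlap and 4 that did not pass. Among the ligands, Bmp7 ranged from 0.487 to 2.80 RPKM in epiblast and from 23.2 to 94.7 RPKM in germ cells (log2 fold change 4.36 ± 0.19, adjusted p = 2.48e-10). Bmp4 ranged from 3.39 to 14.5 RPKM and from 18.3 to 200.3 RPKM, lowest in a female E15.5 library. Among the receptors, Bmpr2 and Acvr1 were higher with overlap, and of the transducers Smad5 was higher in every library (gap 0.16) while Smad1 and Smad4 did not pass. The feedback inhibitor Smad6 was apart, at most 5.58 RPKM in epiblast and at least 16.9 RPKM in germ cells. The target Msx2 was at 0 to 1.34 RPKM and at 19.6 to 248 RPKM, highest at E9.5 and next highest in female E15.5 cells. Its relative Msx1 overlapped, with 391 RPKM at E9.5, 1.30 RPKM at E11.5 and 282 and 218 RPKM in female E15.5 cells. Msx1, Msx2 and Bmp7 all had their highest library at E9.5, where the mesenchyme markers were also highest, and the part of those cells in the E9.5 values was not tested.

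Glycolysis was the group with the most members lower in every library: 16 of 35 tested lines (45.7%), against 6.07% of all genes tested. A further 5 were lower with overlap, 4 were higher in every library, 2 higher with overlap and 8 did not pass, and the median log2 fold change was -0.94. Pkm holds 2 of the lines. Ldha, which makes lactate, was at 1203 to 1446 RPKM (median 1362) in epiblast and at 26.1 to 666 RPKM (median 216) in germ cells, a log2 fold change of -3.21 ± 0.061 (adjusted p = 6.51e-14, limma). Slc16a3, the lactate exporter, was at 232 to 446 RPKM in epiblast and 2.13 to 157 RPKM in germ cells. Pgk1, which makes ATP in the pathway, was at 1435 to 1661 RPKM and 174 to 569.7 RPKM, with a gap of 1.33. Pdk1, a kinase that holds back the entry of pyruvate carbon into the mitochondrial cycle, was at 74.5 to 144 RPKM and 0.659 to 35.7 RPKM.

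Another 4 members were higher in every library. Mpc1 and Mpc2 form the carrier that brings pyruvate into the mitochondrion: Mpc1 was at 13.6 to 23.1 RPKM in epiblast and 34.6 to 178 RPKM in germ cells (log2 fold change 2.19 ± 0.14, adjusted p = 9.60e-09). Ldhb, the lactate dehydrogenase subunit that favours pyruvate, was at 165 to 234 RPKM and 264 to 1174 RPKM, and Egln3, an oxygen-sensing hydroxylase, was the last. Of the 16 lines lower in every library, 15 (93.8%) had their highest germ cell library at E9.5 and 11 (68.8%) their lowest in a female E15.5 library. Ldha was at 666 and 549 RPKM at E9.5, 315 and 288 RPKM at E10.5 and 26.1 and 32.8 RPKM in female E15.5 cells. The count of 16 was 18 without the E9.5 libraries and 13 under quantile normalization. Of 42 genes of oxidative phosphorylation, 1 (2.38%, against 5.63% of all genes) was higher in every library, 14 were higher with overlap, 10 were lower with overlap and 17 did not pass. The 15 higher in all and the 10 lower are shares close to the 32.1% and 26.4% of all genes.

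**Figure D3:**
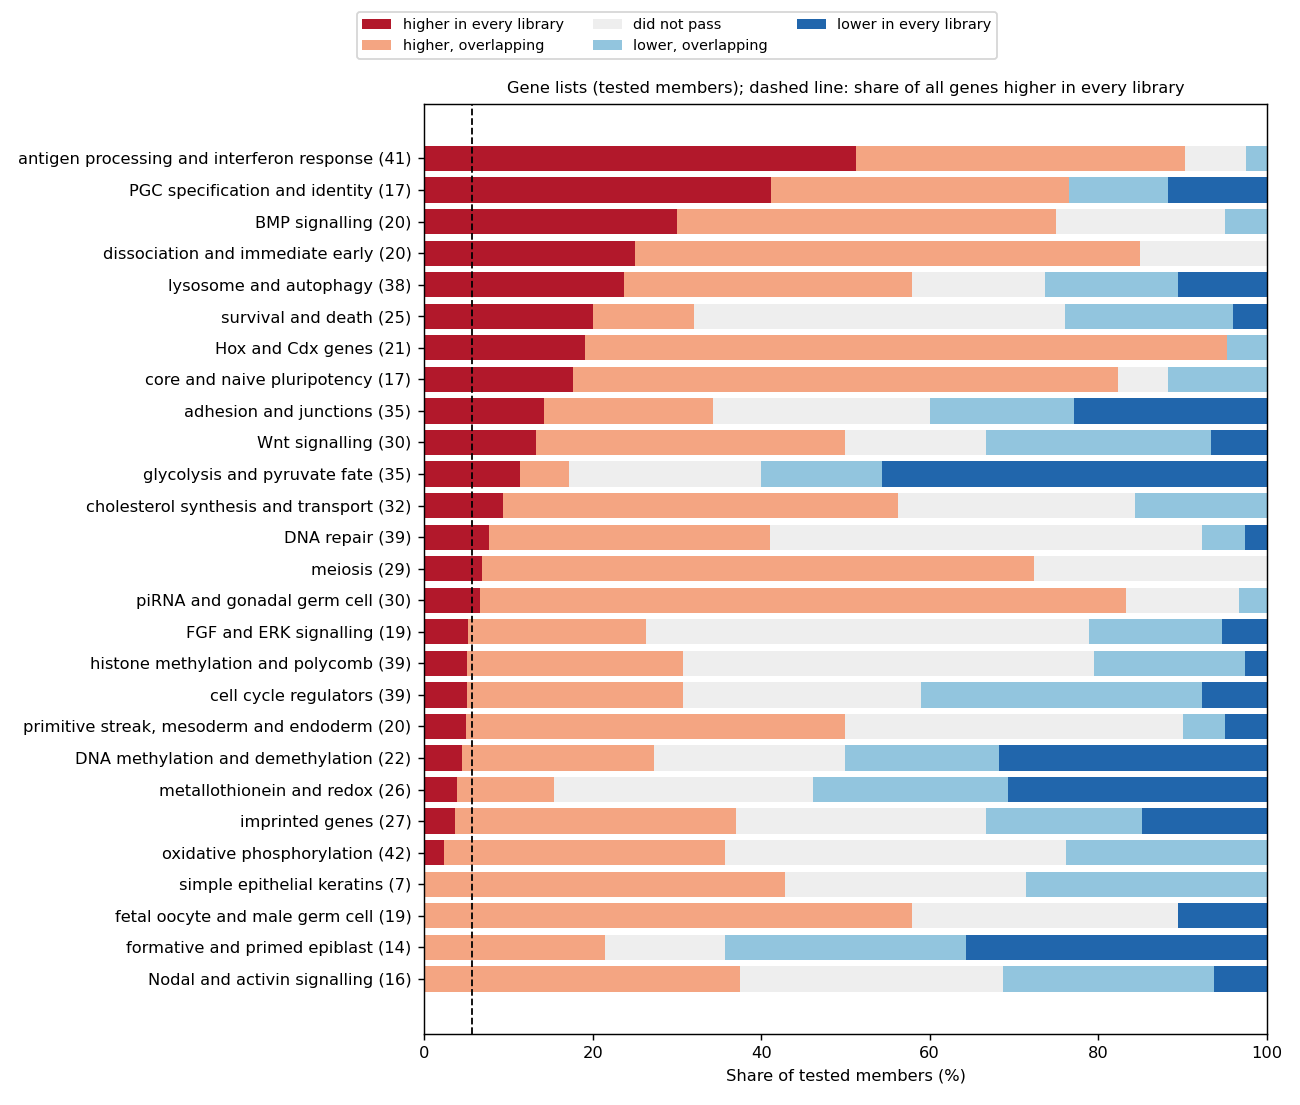
Share of the tested members (number in brackets) of each gene list that were higher in every germ cell library, higher with overlap, not past the test, lower with overlap or lower in every library, in percent. The dashed line is the share of all tested genes higher in every library, 5.63%; antigen processing reaches 51.2%, while the piRNA and meiosis lists are mostly higher with overlap, with 6.67% and 6.9% of members higher in every library.

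Metallothioneins, small zinc-binding proteins, were among the widest gaps below. Mt2A was at 228 to 354 RPKM (median 305) in epiblast and was listed at 0 to 8.91 RPKM in germ cells, a log2 fold change of -6.53 ± 0.17 (adjusted p = 2.07e-12, limma). Mt1m was at 212 to 357 RPKM and at most 7.10 RPKM. These genes have near-identical copies, and how reads were divided among them is not given in the sources used here. Of 26 tested members of the metallothionein and redox list, 8 (30.8%, against 6.07% of all genes) were lower in every library and 1 (3.85%, against 5.63%) was higher. Gclc, the rate-limiting enzyme of glutathione synthesis, was at 49.2 to 62.1 RPKM and 4.74 to 16.0 RPKM. Gstm1, a glutathione transferase, was the 1 higher, with a gap of 0.33.

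Of 35 tested adhesion genes, 8 (22.9%) were lower and 5 (14.3%) higher in every library, against 6.07% and 5.63% of all genes. A further 6 were lower with overlap, 7 higher with overlap and 9 did not pass, so that 12 in all were higher, a share close to the 32.1% of all genes. Cdh1, E-cadherin, was at 174 to 200.2 RPKM (median 185) in epiblast and 22.5 to 57.9 RPKM (median 43.3) in germ cells, a log2 fold change of -2.21 ± 0.15 (adjusted p = 1.90e-08, limma). Cdh3, P-cadherin, went from at most 3.90 RPKM to at least 13.4 RPKM. The tight junction genes Cldn3, Cldn4, Cldn6 and Cldn7 were lower in every library. Gja1, the gap junction protein connexin 43, was at 218 to 259 RPKM in epiblast, at 91.9 and 98.7 RPKM at E9.5 and at 0.437 RPKM in the median germ cell library. The count of 5 was 3 under scaling to the median gene and 8 with germ cells of E9.5 to E12.5 only.

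Other wide gaps above belonged to genes outside these lists. Gfra3, a receptor of the GDNF family, was at 0 to 0.409 RPKM in epiblast and 32.4 to 76.0 RPKM (median 61.0) in germ cells, with a gap of 4.57. Tspan8, a tetraspanin of the cell surface, was at 0.635 to 5.74 RPKM and 113 to 413 RPKM, with a log2 fold change of 6.40 ± 0.23 (adjusted p = 3.79e-11, limma). Tmem132c, a membrane protein, was listed at 0 to 0.202 RPKM and at 10.3 to 38.3 RPKM, where both extremes of the germ cell range were E9.5 libraries. Of 25 tested genes of survival and death, 5 (20%, against 5.63% of all genes) were higher and 1 (4%, against 6.07%) lower in every library, and 11 did not pass. With or without overlap 8 were higher and 6 lower, shares close to the 32.1% and 26.4% of all genes.

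Other wide gaps below included genes known from blood and nerve cells. Coro1a, an actin regulator of white blood cells, was at 54.4 to 65.0 RPKM (median 62.7) in epiblast and 0 to 4.33 RPKM (median 0.963) in germ cells, a log2 fold change of -4.93 ± 0.34 (adjusted p = 2.55e-08, limma). Sncb, beta-synuclein, was at 74.2 to 139 RPKM and at most 2.84 RPKM in germ cells. Fam131b, Lypd1 and Ppap2c had gaps of 2.94, 2.70 and 2.67, and Tmem255b was listed at 0 in all 12 germ cell libraries and at 5.66 to 22.5 RPKM in epiblast. Of the 157 genes with a gap of at least 1 below, 9 were listed at 0 in every germ cell library, as were 12 of the 140 above in every epiblast library.

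Among named genes with a gap of at least 1 above, the 10 with the smallest spread over the 12 germ cell libraries were Ndfip1, Tmem175, Serinc3, Osbpl9, Lgmn, Shisa5, Trim5, Cd55, Itfg1 and Raph1. A small spread was not the same as no difference among the germ cell groups: Itfg1, Shisa5, Trim5, Osbpl9 and Lgmn passed the test among ages (adjusted p from 0.0018 to 0.0241) and the other 5 did not. Ndfip1, an adaptor of ubiquitin ligases, was at 109 to 142 RPKM in epiblast and 302 to 471 RPKM in germ cells, with a log2 SD of 0.17 over the 12 libraries. Its log2 fold change was 1.51 ± 0.077 (adjusted p = 1.02e-09, limma), and it did not pass the test among ages (adjusted p = 0.319). Cd55, which shields cells from complement, was at 1.35 to 1.97 RPKM and 11.1 to 21.9 RPKM, with a gap of 2.02. Trim5, a ubiquitin ligase of the Trim family, had a gap of 1.63. Lgmn, a lysosomal protease, was at 13.9 to 24.5 RPKM and 65.8 to 120 RPKM. Of the lysosome and autophagy list, 9 of 38 tested members (23.7%, against 5.63% of all genes) were higher and 4 (10.5%, against 6.07%) lower in every library. Ctsh and Grn, a protease and the progranulin of the lysosome, had gaps of 1.59 and 1.33, and the protease Ctsc was lower with a gap of 0.64. The count of 9 higher was 5 under scaling to the median gene, and that of 4 lower was 9 without the E9.5 libraries.

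The mean-only genes overlapped epiblast most often in the E9.5 libraries, and the higher ones also in the E10.5 libraries. The E10.5 libraries are shallow, with 21.3% and 21.6% of tested genes listed at 0, so age and depth cannot be told apart there. Of the 1253 higher genes, 576 and 463 overlapped in the E9.5 libraries, 509 and 457 in the E10.5 ones and 102 and 116 in the E12.5 ones. Of the 990 lower genes, 557 and 599 overlapped at E9.5, and 150 to 239 in each of the other 10 libraries. Overlap in E9.5 libraries alone accounted for 209 of the higher genes (16.7%) and 361 of the lower ones (36.5%). Overlap at E9.5, E10.5 or both, and in no other, accounted for 585 (46.7%) and 487 (49.2%). Overlap in E15.5 libraries alone accounted for 127 and 62. Overlap in 1 library alone was found for 358 higher and 318 lower genes. Of the 990 lower genes, 79 had an epiblast library listed at 0 and could not have been below it.

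**Figure D4:**
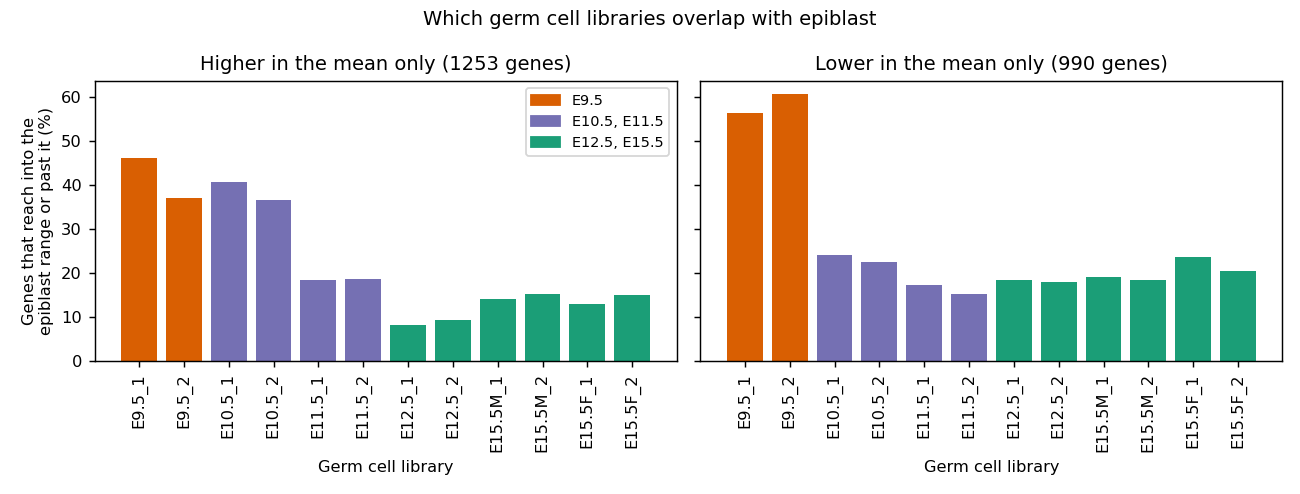
Share of the mean-only genes that reach into or past the epiblast range in each germ cell library, in percent, for 1253 higher genes (left) and 990 lower genes (right). For lower genes both E9.5 bars stand above all others, at 56.3% and 60.5%; for higher genes the E9.5 bars, at 46% and 37%, stand beside the E10.5 bars, at 40.6% and 36.5%, and those of E12.5 are the shortest.

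Without the 2 E9.5 libraries 252 genes were 1 or more above and 338 were 1 or more below in every remaining library, against 140 and 157 with them. Without the 4 shallow E10.5 and E11.5 libraries, 211 were above, and the count of all genes lower in every library was 1389, against 903. A comparison over fewer libraries meets the condition more easily, and the E9.5 libraries also had the highest markers of mesenchyme, endothelium and allantois, whose part was not tested.

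The 8 named genes with the largest mean-only rise all had their lowest germ cell library at E9.5. Dazl, an RNA-binding protein that licenses gametogenesis, was listed at 0 to 1.68 RPKM in epiblast. In germ cells it was at 0.310 and 0.0451 RPKM at E9.5, 7.31 and 12.6 RPKM at E10.5, 87.2 and 109.9 RPKM at E11.5 and 394 and 369 RPKM at E12.5. At E15.5 it was at 1069 and 1016 RPKM in male and 938 and 939 RPKM in female cells. The E9.5 libraries lay inside the epiblast range and the other 10 above it, for a log2 fold change of 5.88 ± 0.20 (adjusted p = 2.56e-11, limma). Rhox13, a homeobox gene of the germ line, was listed at 0 in all epiblast and both E9.5 libraries and at 5.01 RPKM or more in the others. Rn60_X_0743.1, a locus without a gene name, was at 0 to 1.43 RPKM in epiblast, 0 and 2.83 RPKM at E9.5 and up to 275 RPKM in female E15.5 cells (log2 fold change 5.02 ± 0.25, adjusted p = 9.35e-10). The others were Tcl1a, Tex19.2, Stk31, Pramef12 and Sage1.

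Of 30 tested members of the list of piRNA and gonadal germ cell genes, 23 were higher with overlap and 2 higher in every library, 1 was lower with overlap and 4 did not pass. The share higher in every library, 6.67%, is near that of all tested genes, 5.63%, while 32.1% of all genes were higher with or without overlap. The lowest germ cell library was an E9.5 one for 20 of the 23 (87%) and an E10.5 one for the other 3. Ddx4, the germ cell RNA helicase Vasa, was at 3.98 to 29.7 RPKM in epiblast, 2.46 and 0.0419 RPKM at E9.5, 9.18 and 7.68 RPKM at E10.5 and up to 387 RPKM at E15.5. Both E9.5 libraries were below every epiblast library, and the 6 libraries of E12.5 and E15.5 were above every one. Brdt, a bromodomain protein of the testis, was an exception, at 0.321 to 1.35 RPKM in epiblast and 1.99 and 4.61 RPKM already at E9.5, with a gap of 0.35. Of 29 tested genes of meiosis, 21 were higher, against 32.1% of all genes, 19 of them with overlap. The other 2 (6.9%) were higher in every library, a share again near that of all genes. Among these 2, Smc3, a cohesin subunit that also serves dividing cells, had a gap of 0.32.

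**Figure D5:**
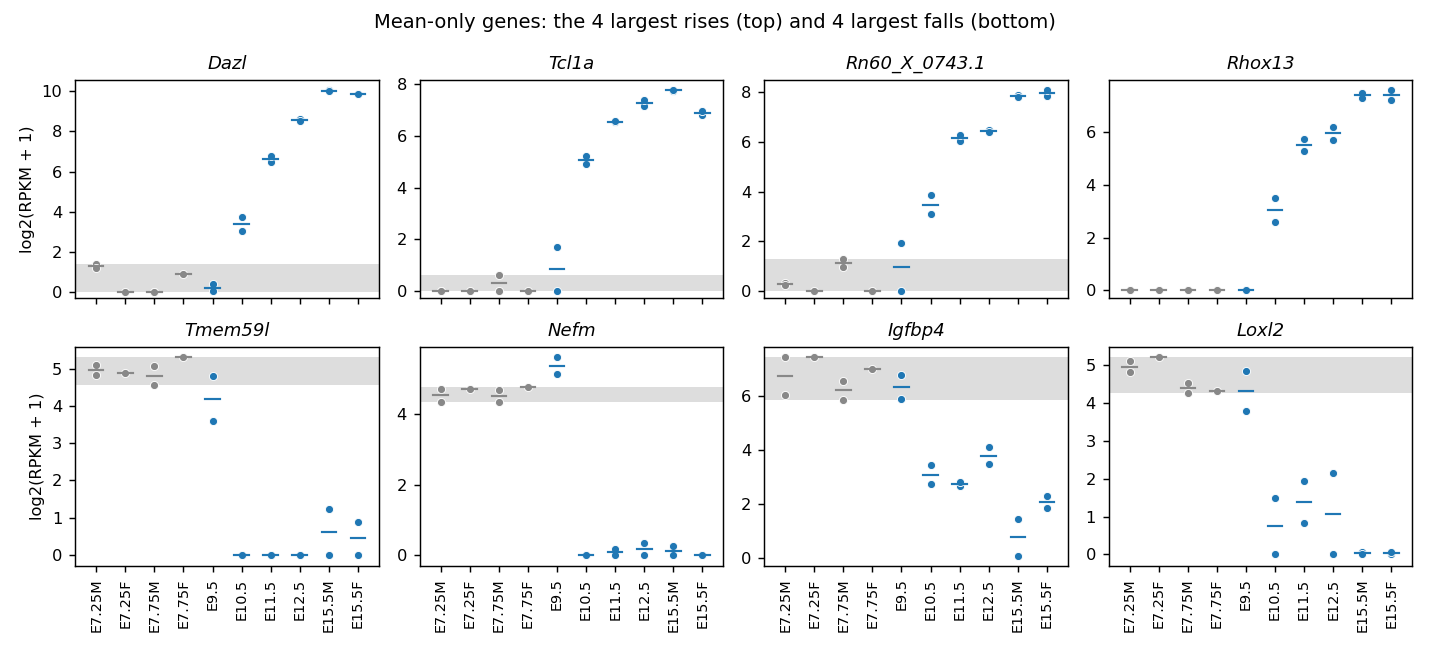
RPKM of the 4 named genes with the largest mean-only rise (top) and the 4 with the largest mean-only fall (bottom), on log2(RPKM + 1), by age group; points are libraries, bars group means, and the grey band spans the 6 epiblast libraries. In the top row the E9.5 points sit in or near the band, and in the bottom row they sit in, near or above it while all later points are below it.

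The largest mean-only falls also turned on E9.5. Nefm, a neurofilament subunit, was at 19.5 to 26.2 RPKM in epiblast, 47.9 and 34.0 RPKM at E9.5 and at most 0.265 RPKM in the 10 later libraries (log2 fold change -3.63 ± 0.15, adjusted p = 1.61e-10, limma). The E9.5 libraries were above all epiblast libraries and the later ones below. Loxl2, which cross-links collagen, was at 18.2 to 35.9 RPKM in epiblast and 12.8 and 27.4 RPKM at E9.5, where the second library overlapped. Igfbp4, which binds insulin-like growth factors, was at 108 and 57.2 RPKM at E9.5, inside the epiblast range of 56.3 to 170.1 RPKM. All 8 named genes of this kind had their highest germ cell library at E9.5, as did 598 of the 990 lower mean-only genes (60.4%). The mesenchyme and endothelial markers were also highest at E9.5, and their part in these values was not tested.

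Hox and Cdx genes, which pattern the trunk, were higher in 20 of 21 tested members, against 32.1% of all genes, and 4 of them (19%, against 5.63%) in every library. Only 21 of 30 lines passed the filter of 1 RPKM in 2 libraries. Together the 21 summed to just 5.89 to 10.2 RPKM in epiblast, so members could pass through germ cells alone. The filter thus favoured members that are higher, and the count of 20 is a description only. For 18 of the 20 (90%) the highest library was an E9.5 one. Cdx1 was listed at 0 in all epiblast libraries, at 42.8 and 152 RPKM at E9.5 and at 1.71 RPKM in the lowest library, a male E15.5 one. Hoxb6 was at 41.9 and 21.4 RPKM at E9.5 and 1.54 RPKM in an E12.5 library, and was listed at 0 in the other 9 germ cell libraries. The allantois and extraembryonic mesoderm markers, at 821 and 1149 summed RPKM at E9.5, 36.3 to 325 in the other germ cell libraries and 10.4 to 23.5 in epiblast, moved with these genes, and their part was not tested. Bmp4 is among these markers. It averaged 150.5 RPKM at E9.5, and 198.6, 178.1 and 142.3 RPKM at E10.5, E11.5 and E12.5. The sums at those 3 later ages were 268.2 to 325, 183.4 to 205.1 and 141.1 to 173.6 RPKM, so most of each came from Bmp4.

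Immediate early and heat shock genes, which respond to handling of cells, were also higher, in 17 of 20 tested members, against 32.1% of all genes. Of the 20, 5 (25%, against 5.63% of all genes) were higher in every library and 12 with overlap, none was lower and 3 did not pass. Fos was at 0 to 4.52 RPKM in epiblast and 15.0 to 525 RPKM in germ cells, highest at E12.5 (log2 fold change 5.94 ± 0.23, adjusted p = 6.57e-11). Dusp1, a phosphatase of the MAP kinases, was at 3.18 to 8.37 RPKM and 20.5 to 208 RPKM, and Hspb1, a small heat shock protein, had a gap of 1.52. The labels do not say how cells of each class were dissociated, so the part of handling was not tested.

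Of 39 tested cell cycle genes, 3 (7.69%) were lower in every library, near the 6.07% of all genes, each with a gap of at least 1, and 2 (5.13%, near the 5.63% of all genes) were higher in every library. A further 13 were lower with overlap, 10 higher with overlap and 11 did not pass. In all 16 were lower and 12 higher, against 26.4% and 32.1% of all genes. Ccnd1, cyclin D1, was at 77.6 to 89.0 RPKM in epiblast and 0.159 to 33.7 RPKM (median 1.89) in germ cells, highest at E9.5. Ccne1, cyclin E1, was at 145 to 209 RPKM and 19.4 to 42.7 RPKM (log2 fold change -2.50 ± 0.10, adjusted p = 1.15e-10), and the factor E2f4 had a gap of 1.09. Cenpa, the histone of the centromere, was higher, at 9.18 to 14.1 RPKM and 40.9 to 138 RPKM. Among imprinted genes, Peg3 was higher in every library, at 3.31 to 5.41 RPKM and 18.8 to 126 RPKM. Snrpn was lower in every library, at 230.2 to 303 RPKM and 0.00756 to 67.7 RPKM. Of 27 tested lines of imprinted genes, 1 (3.7%) was higher and 4 (14.8%) were lower in every library, against 5.63% and 6.07% of all genes, and 8 did not pass. With or without overlap 10 lines were higher and 9 lower, against 32.1% and 26.4% of all genes.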

How the data were processed

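RNA was extracted with the PicoPure kit and made into libraries with the SMART-Seq v4 kit for very small inputs, per the labels' protocols. The authors deposited 1 table of RPKM for the 18 libraries, with 32545 lines. Per the submitters' processing notes, bcl2fastq 2.18.0.12, cutadapt 1.14, TopHat2 2.1.0 and Cufflinks 2.2.1 were used with the build rn6; how each was set is not given in the sources used here, nor is the treatment of reads from near-identical genes. No column lay outside the series. Read totals are not in the table, and relative depth was taken from the most common ratio of low RPKM values of the same genes to those of the female E7.75 library.

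Genes with at least 1 RPKM in at least 2 libraries were kept (14865) and fitted on log2(RPKM + 1) with limma 3.58.1 in R 4.3.3, with 1 mean for each of the 8 groups (sexes of epiblast pooled within a day), and the contrast was the mean of the 6 germ cell groups minus that of the 2 epiblast days. A second test asked whether the 6 germ cell groups differ. The threshold was an adjusted p of 0.05. Differing in every library required passing the test without overlap. The script was tested on simulated data. Python 3.11.15 with pandas 2.3.3, numpy 2.4.6, scipy 1.17.1 and matplotlib 3.10.9 was used for the counts, the permutation test and the figures.

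Named genes were the 3 markers, the 12 widest gaps in each direction, the 10 most even genes with a gap of at least 1, the 8 largest mean-only changes in each direction, and in each gene list the 2 widest gaps in each direction and the largest overlapping change. All averaged 5 RPKM or more in the class where they were higher, with 1 line in the table, no small RNA symbol and none that starts with LOC, RGD or AABR, or with AC and digits. Some genes that meet these conditions are not reported here. Other list members were chosen for the text after their values were seen. The libraries compared and the gene lists were chosen with earlier results of these data known. Alternatives were another pseudocount, other filters, other scalings, a fit of 2 groups, a replicate block, and fits without single libraries or ages.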

Additional observations from a re-analysis of the deposited data

Results flagged for a closer look

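In 135 named genes the 6 epiblast libraries were searched for 1 library far from the others relative to the range of the 6 on the log2 scale. There were 10 such genes, and chance alone would mark about 1 in 20 groups. The distance itself can be small: the whole log2 range was 0.00934 for Nr5a2 and 0.253 for Coro1a. For Hand1, Nr5a2, Prdm14, Sage1 and Tcl1a every other epiblast library was listed at 0, where the rate of 1 in 20 need not hold. A male E7.75 library (replicate 2) stood apart in 3 of them: it was high for T, a gene of the primitive streak, at 5.58 RPKM, high for Tcl1a at 0.528 RPKM and low for Coro1a at 54.4 RPKM. Prdm14 was at 1.11 RPKM in male E7.25 replicate 1 and listed at 0 elsewhere in epiblast. Male E7.25 replicate 2 was high for Tfap2c, at 0.639 RPKM, and for Hand1, at 0.358 RPKM. Sage1 was at 1.51 RPKM in the female E7.25 library and Ddx58 at 0.790 RPKM in male E7.75 replicate 1. The female E7.75 library was low for Mt2A, at 227.9 RPKM, and was the only epiblast library with a value above 0 for Nr5a2, at 0.00649 RPKM. For Tfap2c, Ddx58, Nr5a2, Coro1a and Mt2A the classes stayed apart with these libraries included.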

How the results depend on the processing

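No change of direction was found in any of 135 named genes under 30 alternatives each: 4042 values kept direction and side of the threshold and 8 lost the call. The 8 were Prrx2 (adjusted p of 0.110 with pseudocount 0.1, 0.273 with 2 groups, 0.205 without E9.5), P4ha2 (0.133 with 2 groups, 0.112 without E7.25), Cdkn1c (0.0580) and Krt18 (0.0639) with 2 groups, and Zfp57 (0.0620 without E7.75), all from limma. With a pseudocount of 0.1 the mean-only counts were 2050 higher and 1548 lower. A fit of 2 groups in place of 8 called 3129 genes higher. Without the E9.5 libraries, 1444 genes were lower in every library, and 252 were higher and 338 lower with a gap of at least 1. Without the E10.5 and E11.5 libraries, 1480 were higher and 1389 lower in every library, and 211 were higher with a gap of at least 1. The alternatives without E7.25 or E7.75, and the counts of list members, were chosen after seeing the data.

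Leaving out 1 library at a time gave 4384 to 4828 genes higher and 3615 to 3966 lower, 844 to 982 higher and 912 to 1065 lower in every library, 140 to 171 and 157 to 200 with a gap of at least 1, 1183 to 1256 and 852 to 980 in the mean only, and 7467 to 8400 varying among ages. Same-numbered libraries did not deviate together (correlations from -0.133 to 0.0581 between groups), so the numbers do not pair them. With the replicate block the counts were 4699 higher and 3859 lower, 837 and 903 in every library, 140 and 157 with a gap of at least 1, 1251 and 982 in the mean only, and 8071 among ages. Scaling to the median gene moved the median of all genes from 0.09 to -0.02 and gave 120 genes above and 192 below with a gap of at least 1, of which 120 and 156 were shared with the counts reported. Quantile normalization gave 124 and 187, with 121 and 151 shared. Among the genes named here, separation was lost for Mov10 under both, and for Mbd2, Rnf2, Srebf1 and Apex1 under quantile normalization. Read totals are unknown, so no counting interval can be given, and the shallow E10.5 and E11.5 libraries list more genes at 0.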

Other observations

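Wnt signalling takes part in germ cell specification. Of 30 tested members, 4 (13.3%, against 5.63% of all genes) were higher in every germ cell library, 11 were higher with overlap, 2 (6.67%, near the 6.07% of all genes) were lower in every library, 8 were lower with overlap and 5 did not pass (limma, Benjamini-Hochberg adjustment over all genes). Fzd2, a Wnt receptor, was at 73.6 to 87.8 RPKM in epiblast and 2.90 to 13.7 RPKM in germ cells, with a log2 fold change of -3.61 ± 0.19 (adjusted p = 1.24e-09) and a gap of 2.34. Lrp5, a co-receptor, was also lower in every library, at 10.7 to 15.1 RPKM and 1.88 to 7.92 RPKM. On the other side, Notum, a secreted Wnt inhibitor, had a 0 in each epiblast library and was at 2.17 to 21.5 RPKM in germ cells, highest at E9.5. Lgr4, the receptor of the R-spondins, was at 4.25 to 13.1 RPKM and 18.1 to 60.8 RPKM. Axin2, a general target of the pathway, did not pass (log2 fold change 0.067 ± 0.21, adjusted p = 0.802).

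Among 12 tested genes used as markers of extraembryonic ectoderm, 3 (25%) were higher and 3 (25%) lower in every germ cell library, against 5.63% and 6.07% of all genes. Those higher were Tfap2c, Bmp4 and Plet1, of which the first 2 are also germ cell or BMP genes. Those lower were Eomes, at 14.9 to 26.6 RPKM in epiblast and at most 2.62 RPKM in germ cells, Ets2 and Ascl2.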
